A study of Rattus norvegicus with 2 samples.

Results

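A set of 10 enzymes that remove superoxide and peroxides, or keep that removal supplied with reducing power, was examined in the duodenal mucosa of an immobilized and a control rat. They were chosen by gene name, as every probe set annotated on the array to Sod1, Sod2, Gpx1, Gpx2, Gpx3, Gpx4, Prdx1, Prdx6, Txnrd1 or Gclc, and comprised 10 of the 4736 genes with a probe set of their own and 18 of the 8799 probe sets. A further probe set that names Gpx4 together with other genes was left out. The control was a male Wistar rat aged 15 weeks that spent 2 weeks in a metabolic cage, and the other animal was a male Wistar rat of the same age that spent the same 2 weeks in an immobilization cage. RNA of the duodenal mucosa, named as epithelial cells in the labels, from each animal was measured on a single Affymetrix oligonucleotide array, the rat U34A. Since each group held 1 array, there was no replicate, no test between the groups could be made and no p-value is given, so every difference below is one between 2 arrays, and their number limits the precision of each value.

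Superoxide dismutases turn superoxide, a by-product of respiration and of several oxidases, into hydrogen peroxide. Glutathione peroxidases, several of which carry selenocysteine at the active site, and peroxiredoxins, which use a cysteine, then reduce hydrogen peroxide and lipid peroxides. The former draw on glutathione, whose synthesis starts at glutamate-cysteine ligase, and most of the latter on thioredoxin, which thioredoxin reductase recharges with NADPH. The gut lining meets peroxides from food, bile, bacteria and its own metabolism, and holds a glutathione peroxidase of its own, Gpx2.

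Signals are intensities in array units, those of the immobilized rat after multiplication by 1.015, which brought probe sets above the signal floor to a median log2 ratio of 0. The floor of 39.9 was the 50th percentile of all signals, and a ratio was taken only where both arrays exceeded it. The probe set of highest mean signal stood for its gene, and the remaining probe sets are given beside it. The technical SD of the log2 ratio was 0.31, taken from the spread among probe sets of 1 gene (1570 probe sets of 696 genes), and is an error within the pair of arrays and not between animals. A 1.5-fold difference, the threshold used below, was 1.89 of these SDs. The hybridisation spike-ins had a median log2 ratio of -0.21 over 9 probe sets, 7 of them below 0. All 8 measured markers of the intestinal epithelium, among them Krt8, Lgals4 and Fabp2, were above the floor on both arrays.

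The 10 enzymes showed no common direction and divided evenly between higher and lower signals. Txnrd1, the cytosolic thioredoxin reductase, was lower in the immobilized rat at both of its probe sets, and Gpx2, the gut glutathione peroxidase, was also lower. Gpx1 and Gpx3, the cytosolic and the secreted glutathione peroxidase, were higher, as was Gclc, the catalytic subunit of glutamate-cysteine ligase, at a low signal. Prdx1, Prdx6, Gpx4 and Sod2 differed by less than 1 technical SD. Every one of the 10 genes exceeded the floor on each array. Ratios lay above 0 for 5 and below 0 for 5 (6 and 4 after loess scaling), and the median log2 ratio was 0.09, within a range of -0.61 to 0.66. Over all 2524 genes above the floor the median was -0.01 and 50.6% of genes had a ratio below 0.

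Counted at 1.5-fold, 1 of the 10 enzymes was higher (Gpx3) and 1 lower (Txnrd1), against 8.32% of all genes higher and 4.87% lower, so that counts of 1 among 10 stand close to the background. None of the 10 reached 2-fold by the probe set that represents the gene, a difference shown by 2.02% of all genes in the higher direction and 0.674% in the lower. Gpx1 missed the threshold narrowly, at 1.49-fold. After loess scaling Txnrd1 was just short of 1.5-fold, with a log2 ratio of -0.57.

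**Figure D1:**
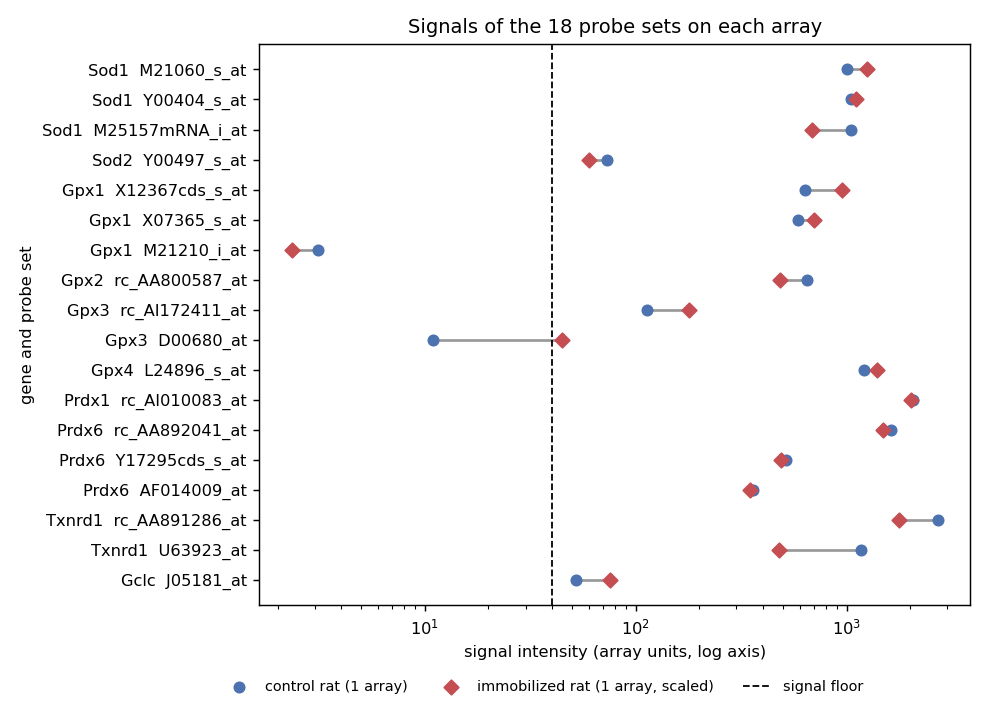
Signal intensity of each of the 18 probe sets (log axis, array units) in the control rat (circles) and, after scaling, in the immobilized rat (diamonds), 1 array each, with the signal floor of 39.9 dashed. The widest gap among probe sets above the floor on both arrays is that of Txnrd1 at U63923_at, and 1 Gpx1 probe set lies below the floor on both.

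Txnrd1 encodes the selenoprotein that returns oxidised thioredoxin to its reduced form. At the probe set that represents it, its signal was 2711 in the control rat and 1773 in the immobilized rat, 1.53-fold lower. The other probe set, U63923_at, read 1169 and 478, 2.45-fold lower, the only one of the 18 to exceed 2-fold. The control array was thus the higher at both probe sets, by log2 ratios of -0.61 and -1.29, or 1.98 and 4.17 technical SDs. The difference of 0.68 between these ratios was matched or exceeded by 94 of the 696 genes with several probe sets above the floor (13.5%), so the direction was shared while the size was not settled. Among those 696 genes, 10 (1.44%) were at least 1.5-fold lower at every probe set, and Txnrd1 was among them, though not after loess. By its representing probe set alone Txnrd1 stood at rank 109 from the lowest of 2524 genes.

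Of the 4 glutathione peroxidases only Gpx3 reached 1.5-fold, and Gpx1, Gpx2 and Gpx4 did not. Gpx2, made mainly in the epithelium of the digestive tract, had a signal of 647 in the control rat and 483 in the immobilized rat, 1.34-fold lower (log2 ratio -0.42, 1.36 technical SDs, 1 probe set), and 25.5% of all genes lay as far from 0 or farther. Gpx1, the widely expressed cytosolic form, had 635 and 945 at its brighter probe set, 1.49-fold higher, a distance from 0 reached by 13.8% of all genes. It had 590 and 701 at the next, 1.19-fold higher. These log2 ratios of 0.57 and 0.25 shared their sign, and their difference was 0.33. The remaining Gpx1 probe set, whose name carries the array's suffix for an incomplete design (_i_at), read 3.10 and 2.34 and gave no ratio. The control rat thus had the higher signal for Gpx2 and the lower one for Gpx1.

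Gpx3, the secreted plasma form, had a signal of 112.6 in the control rat and 178 in the immobilized rat, 1.58-fold higher (log2 ratio 0.66, 2.12 technical SDs). Its other probe set exceeded the floor only on the immobilized rat's array, at 44.6 against 10.9, which bounds it at 1.12-fold higher or more. By its ratio Gpx3 was the highest of the 10 enzymes and stood at rank 151 from the highest of 2524 genes. Gpx4, which reduces lipid peroxides within membranes, had 1207 and 1392, 1.15-fold higher at 0.66 technical SDs.

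**Figure D2:**
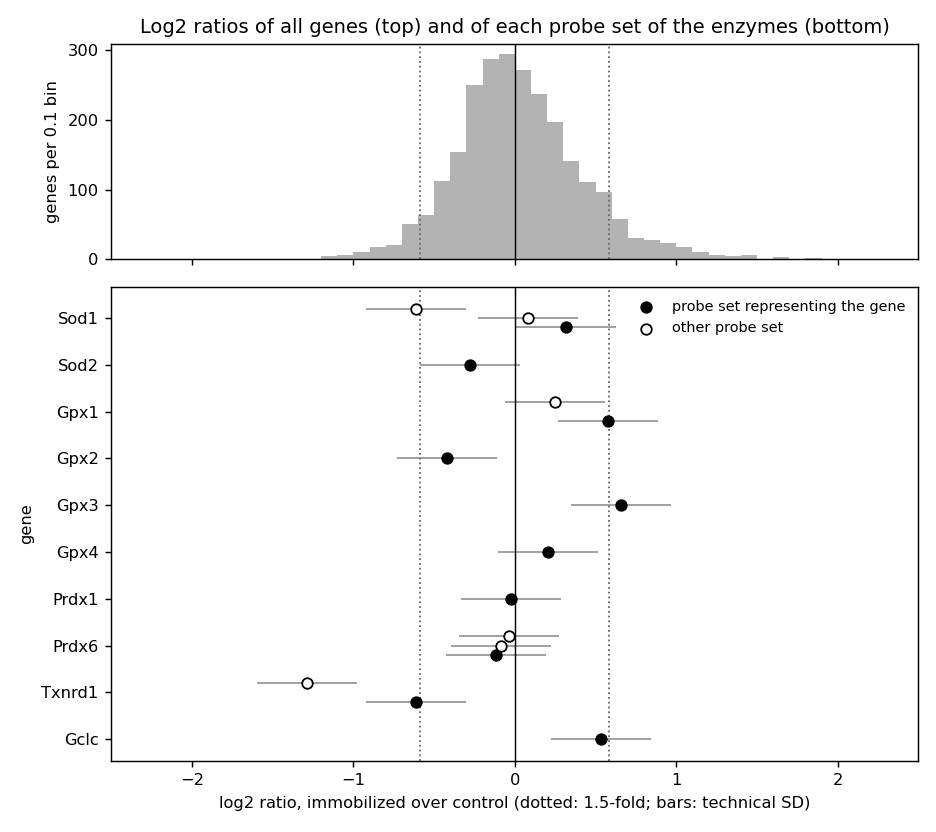
Log2 ratio of the immobilized over the control rat, as a histogram over the 2524 genes above the floor (top) and for each of the 16 probe sets of the 10 enzymes above it (bottom), filled where the probe set represents the gene, with bars of 1 technical SD (0.31) and dotted lines at 1.5-fold. Txnrd1 lies below 0 at both probe sets, Gpx1 above 0 at both, the Prdx6 probe sets lie together near 0, and those of Sod1 fall on either side of it.

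The superoxide dismutases gave no settled difference. Sod1, the copper-zinc enzyme of the cytosol, had 999 and 1245 at the probe set that represents it, 1.25-fold higher, and 1043 and 1101 at another, 1.06-fold higher. At the third, M25157mRNA_i_at, of incomplete design, the order was the opposite, with 1047 in the control rat and 684 in the immobilized rat, 1.53-fold lower. The control signals of the 3 probe sets were alike and those of the immobilized rat were not, so that the log2 ratios of 0.32, 0.08 and -0.62 spanned 0.93. A span that wide or wider was found in 39 of 696 genes (5.60%). Sod2, the manganese enzyme of mitochondria, had 72.9 and 60.0, 1.21-fold lower at 0.91 technical SDs, both signals near the floor.

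The peroxiredoxins hardly differed. Prdx1, which passes electrons from thioredoxin to hydrogen peroxide, had 2059 and 2021, a log2 ratio of -0.03 that turned to 0.01 after loess scaling. Prdx6, which also reduces oxidised phospholipids and uses glutathione, had 1612 and 1484 at its brightest probe set, 1.09-fold lower. Its other probe sets read 518 and 488, and 358 and 349. The 3 log2 ratios, -0.12, -0.09 and -0.04, spanned 0.08, whereas 84.3% of genes with several probe sets spanned at least as much.

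Gclc makes gamma-glutamylcysteine, the rate-limiting step of glutathione synthesis. Its single probe set read 52.0 in the control rat and 75.1 in the immobilized rat, 1.44-fold higher (log2 ratio 0.53, 1.71 technical SDs). The control signal was close to the floor of 39.9. In the lowest signal class, a mean signal of up to 117.8, which holds Gclc and Sod2, log2 ratios over 842 genes had an SD of 0.42, against 0.38 over 841 genes in the highest class, above 396.6, which holds 7 of the 10 enzymes. The technical SDs in these classes were 0.32 and 0.29. The middle class, which holds Gpx3, was as wide as the lowest, with an SD of 0.42 over 841 genes and a technical SD of 0.32. Gclc lay 1.71 technical SDs from 0, but 16.2% of all genes lay as far or farther in either direction.

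**Figure D3:**
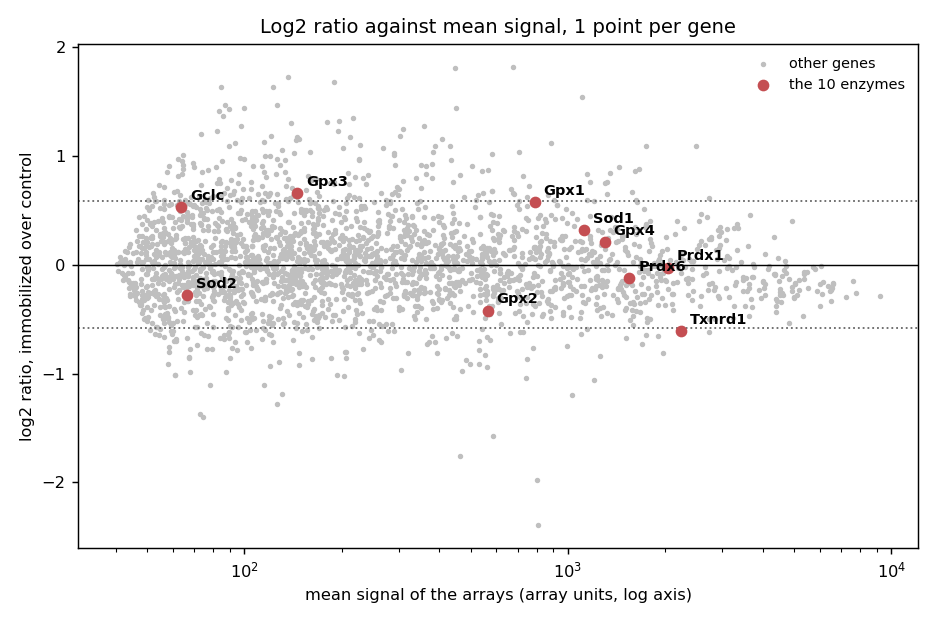
Log2 ratio of the immobilized over the control rat against the mean signal of the arrays (log axis, array units) for 2524 genes, the 10 enzymes in red and named, dotted lines at 1.5-fold. The enzymes span the signal range, from Gclc and Sod2 near the floor to Txnrd1 and Prdx1 at the bright end, and lie within the cloud of other genes.

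Txnrd1, Gpx2, Prdx1 and Gclc are known targets of Nrf2, the transcription factor encoded by Nfe2l2, which binds the antioxidant response element. The window from 250 bases before to 50 after the start of each gene was searched on both strands for the element's core, TGACNNNGC. RefSeq windows (build GRCr8) matched 9 of the 10 enzymes, 12 windows in all, and Prdx6 was unmatched. The core was found in 4 genes, 1 window each (Sod2, Gpx2, Prdx1 and Txnrd1). It was thus in 4 of the 12 windows, against 12.1% of all 33469 windows. These 4 genes had log2 ratios of -0.28, -0.42, -0.03 and -0.61, each below 0 except Prdx1 after loess, while Sod1, Gpx1, Gpx3, Gpx4 and Gclc, without the core in these windows, had ratios above 0 (Sod1 at 2 of its 3 probe sets). Across the genes above the floor that had a window no such division was seen. The 360 genes with the core in a window had a median log2 ratio of -0.01, with 50.8% below 0. The 1781 without it had a median of 0.01, with 49.3% below 0. This search was made after the ratios were known. Sod2, Prdx1 and Gpx4 lay within 1 technical SD of 0, so their signs are not settled. Prdx6, which had no window, had a log2 ratio of -0.12.

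The 250 bases before the start are shown for the 4 genes with the core and for Gpx3, the highest of the enzymes, to let the sites be read in place. All are from GRCr8 and run 5′ to 3′ on the gene's strand. The capitals mark the core, which in each gene lies on the opposite strand and therefore reads as GCNNNGTCA. They are from chr7:22755905-22756154 (minus strand) for Txnrd1, chr6:101230034-101230283 (minus strand) for Gpx2, chr1:50050169-50050418 (minus strand) for Sod2, chr5:135383656-135383905 (plus strand) for Prdx1 and chr10:39529085-39529334 (plus strand) for Gpx3.
Txnrd1: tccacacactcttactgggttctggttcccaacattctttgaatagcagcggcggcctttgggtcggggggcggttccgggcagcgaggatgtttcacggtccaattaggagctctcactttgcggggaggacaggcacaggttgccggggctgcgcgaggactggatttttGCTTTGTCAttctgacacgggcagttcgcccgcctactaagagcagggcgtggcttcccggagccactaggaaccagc
Gpx2: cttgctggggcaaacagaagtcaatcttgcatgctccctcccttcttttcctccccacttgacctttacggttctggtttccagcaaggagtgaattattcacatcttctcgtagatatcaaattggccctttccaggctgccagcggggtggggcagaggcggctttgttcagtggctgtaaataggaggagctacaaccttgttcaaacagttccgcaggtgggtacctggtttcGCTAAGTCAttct
Sod2: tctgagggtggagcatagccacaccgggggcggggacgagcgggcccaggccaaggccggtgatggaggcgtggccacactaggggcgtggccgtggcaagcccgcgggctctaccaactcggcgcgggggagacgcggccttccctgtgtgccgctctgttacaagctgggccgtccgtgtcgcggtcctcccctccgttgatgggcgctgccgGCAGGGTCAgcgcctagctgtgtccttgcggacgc
Prdx1: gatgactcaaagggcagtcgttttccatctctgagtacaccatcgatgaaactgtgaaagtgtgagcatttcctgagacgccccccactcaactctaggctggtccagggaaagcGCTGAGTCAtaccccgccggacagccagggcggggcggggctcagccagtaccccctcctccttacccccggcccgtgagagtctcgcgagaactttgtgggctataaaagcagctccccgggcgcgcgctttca
Gpx3: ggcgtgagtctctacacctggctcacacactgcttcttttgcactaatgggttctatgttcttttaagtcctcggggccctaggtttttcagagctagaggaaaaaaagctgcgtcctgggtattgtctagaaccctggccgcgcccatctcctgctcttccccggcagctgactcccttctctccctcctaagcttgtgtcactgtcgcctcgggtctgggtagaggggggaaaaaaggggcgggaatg
The core began 78 bases before the start in Txnrd1, 13 in Gpx2, 35 in Sod2 and 135 in Prdx1. Txnrd1 has a further annotated start whose window held no core. In Prdx1 the core overlapped a match to TGACTCA, the AP-1 site, which 4.63% of all windows held and no other of the 9 genes. The GC box, GGGCGG, was found in 10 of the 12 windows and in 33.1% of all windows. These 10 covered 8 of the 9 genes, Gpx2 being the exception. Among genes above the floor with a window, 1386 held a GC box and 755 did not. TATAAA was found in 3 of the 12 windows, 1 each of Sod1, Prdx1 and Gclc, and in 14.2% of all. A match is a run of letters and was not shown to be bound.

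The other genes of the redox system that surround these enzymes were read from lists of pathway genes. The lists named 103 genes, 56 of them with a probe set. Both arrays exceeded the floor for 43, of which 16 had a ratio above 0 and 27 below, and the median log2 ratio was -0.08. At 1.5-fold, 6 were higher (14.0%) and 4 lower (9.30%), against the 8.32% and 4.87% of all genes. Of the 43, Ephx1, Txnrd2 and Nos2 were at least 2-fold higher and Ggt1 was at least 2-fold lower.

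In the thioredoxin system, 4 of 14 listed genes had a probe set. Each had a ratio above 0, and 2 of the 4 reached 1.5-fold. The median log2 ratio of 0.52 was 0.34 with probe sets averaged and 0.15 with the floor raised to the 70th percentile. Txnrd2, the mitochondrial thioredoxin reductase, had a signal of 57.1 in the control rat and 121.9 in the immobilized rat, 2.14-fold higher, and its other probe set had a log2 ratio of 0.93. The mitochondrial and the cytosolic reductase thus differed in opposite directions, each at both of its probe sets, although the control signal of Txnrd2 was near the floor. Txnrd2 was among the 22 of 696 genes (3.16%) at least 1.5-fold higher at every probe set. Txnip, an inhibitor of thioredoxin, was 1.88-fold higher (353 to 661), but its other probe set had a log2 ratio of only 0.17. Txn2 and Txnl1, a mitochondrial thioredoxin and a thioredoxin-like protein, had log2 ratios of 0.12 and 0.14, within 1 technical SD.

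Of the other peroxide-removing enzymes, Cat, Prdx2 and Prdx3 were above the floor on both arrays. Catalase, Cat, which breaks down hydrogen peroxide in peroxisomes, had a signal of 294 in the control rat and 575 in the immobilized rat, 1.95-fold higher, while another of its probe sets gave a log2 ratio of only 0.07. Prdx2 and Prdx3, the cytosolic and the mitochondrial peroxiredoxin, had log2 ratios of 0.04 and -0.05, and the other probe set of Prdx3 had 0.33. Gpx5, Gpx6 and Gpx7 were below the floor on both arrays, as were the extracellular superoxide dismutase Sod3 and the metallothionein Mt3.

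Genes of glutathione synthesis, recycling and breakdown had 6 of 8 ratios below 0 (5 after loess). Their median was -0.08, but -0.26 with probe sets averaged and -0.01 with the floor at the 30th percentile. The largest was that of Ggt1, the brush border enzyme that begins glutathione breakdown, with 1430 in the control rat and 624 in the immobilized rat, 2.29-fold lower. Gclm, the regulatory partner of Gclc, was 1.30-fold lower (380 to 292), with log2 ratios of -0.70 to -0.38 over 3 probe sets. The subunits of glutamate-cysteine ligase thus had ratios of opposite sign, that of Gclc resting on a single faint probe set. Cth, which makes cysteine, was 1.45-fold lower (326 to 224). Gss, which adds glycine to complete glutathione, and Gsr, which reduces oxidised glutathione, had log2 ratios of -0.08 and 0.07, and Dpep1, a dipeptidase, had -0.08 (0.15 at another probe set).

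NADPH-supplying enzymes had 4 of 6 ratios below 0, none of them at 1.5-fold, with a median of -0.11. Me1, the cytosolic malic enzyme, was at -0.55 (from -1.08 to 0.15 over 4 probe sets) and Idh1, the cytosolic isocitrate dehydrogenase, at -0.47 (4221 to 3049). Tkt, the transketolase of the pentose phosphate pathway, was at 0.35, and Nnt, the mitochondrial transhydrogenase, at -0.16.

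The listed genes of the Nrf2 pathway, which leave out targets among the enzymes such as Txnrd1 and Gpx2, had 6 of 10 ratios below 0. The count was 7 with the signals as deposited, after quantile normalization or after loess, which turned Hmox1. Their median log2 ratio was -0.33 and lay between -0.35 and -0.28 over the 8 settings tried. Nfe2l2 itself had a signal of 556 in the control rat and 353 in the immobilized rat, 1.57-fold lower, with log2 ratios of -0.65 and -0.68 at its probe sets. Nfe2l2 and the amine oxidase Maoa, of 19 listed redox genes with several probe sets above the floor, and Txnrd1, of 4 such enzymes, were among the 10 of 696 genes (1.44%) at least 1.5-fold lower at every probe set. After loess Txnrd1 leaves them, at -0.57. Mafk, which encodes a small Maf protein that pairs with Nrf2, was 1.46-fold lower (340 to 233), and Nqo1, a quinone reductase, had a log2 ratio of -0.48 near the floor (67.9 to 48.5). Other listed targets went the other way, with the epoxide hydrolase Ephx1 2.22-fold higher (253 to 563) and the export pump Abcc3 1.56-fold higher (164 to 257). Hmox1, the stress-induced heme oxygenase, read 121.9 on each array.

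The selenoproteins and selenium-handling genes besides the enzymes above had 3 of 4 ratios below 0 (2 after loess), none at 1.5-fold. Their median was -0.14, or -0.07 with the floor at the 30th and -0.0021 with it at the 70th percentile. Selenop, the selenium carrier, had a log2 ratio of -0.05 (3271 to 3156) and Sephs2, which makes the selenium donor for selenocysteine, one of 0.03. Dio3, a deiodinase, had -0.32 and Scly, which releases selenium from selenocysteine, -0.23. Selenow was above the floor only in the immobilized rat, at least 1.33-fold higher. Gpx1, Gpx2, Gpx3, Gpx4 and Txnrd1 are themselves selenoproteins, and 3 of these 5 were higher and 2 lower.

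Enzymes that produce oxidants had 7 of 8 ratios below 0, with a median of -0.25. Among these 7, Cyba, Xdh, Maob and Uox, at -0.29, -0.21, -0.15 and -0.13, lay within 1 technical SD of 0. Maoa, the outer mitochondrial membrane enzyme that releases hydrogen peroxide as it oxidises amines, was 1.84-fold lower (628 to 342) with log2 ratios of -0.88 and -0.66. Nos3, the endothelial nitric oxide synthase, was 1.59-fold lower near the floor (81.4 to 51.1; -0.13 at another probe set), and Dao, the D-amino acid oxidase, had a log2 ratio of -0.33. Nos2, the inducible synthase, was 2.76-fold higher (46.4 to 128.1), but another probe set had -0.42.

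**Figure D4:**
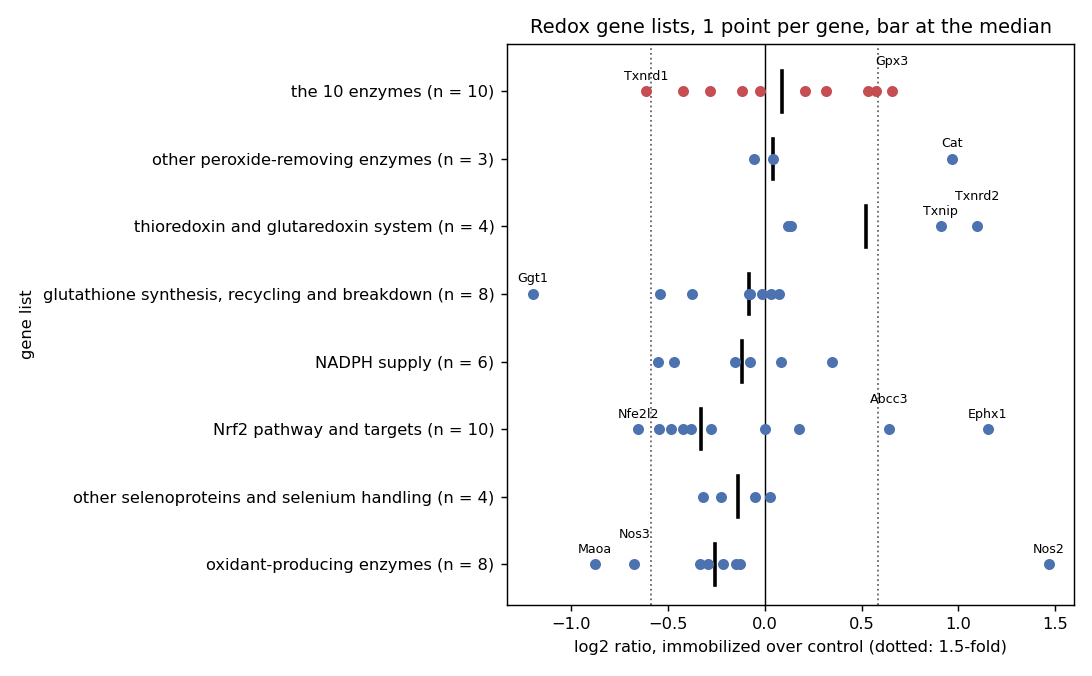
Log2 ratio of the immobilized over the control rat for the 10 enzymes (red) and for the genes of 7 redox lists above the floor (blue), 1 point per gene, black bars at each list's median, dotted lines at 1.5-fold, and names at genes beyond them. The 4 measured genes of the thioredoxin list lie above 0, 2 of them short of 1.5-fold, while Txnrd1, drawn among the 10 enzymes, lies below 0. Of the oxidant-producing enzymes 7 of 8 lie below 0, several of them by less than 1 technical SD. In the Nrf2 list 6 of 10 genes lie below 0 (7 under the other scalings).

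Markers of several cell types differed between the arrays beside these enzymes, and their part in the results above was not tested. Epithelial markers were lower in the immobilized rat for 8 of 8 genes, with a median log2 ratio of -0.23 (-0.16 after quantile normalization, -0.11 after loess) and a summed signal of 33829 against 28044. Villus enterocyte markers were lower for 11 of 14, with a median of -0.28 (59363 to 51769). After quantile normalization or loess 9 of the 14 were lower, with medians of -0.18 and -0.15. The spike-ins, with their median of -0.21, and the array's control probe sets for the ends of beta-actin and GAPDH, at -0.51 to -0.30, were also lower. Red blood cell markers were lower for 4 of 4 (-0.22, 559 to 455). Proliferating crypt cell markers were higher for 8 of 9 genes above the floor (0.47, 1497 to 2072). Exocrine pancreas markers were higher for 16 of 17 (0.75, 7681 to 14118), among them Amy2a3, Prss1 and Pnlip. Smooth muscle markers were higher for 3 of 5 (0.51, 457 to 752). The largest rise among them was that of Acta2 (90.3 to 289), but a fainter Acta2 probe set above the floor gave -0.13. Myl9, at -0.02, conversely gave 0.79 at its fainter probe set. Markers of macrophages and antigen-presenting cells were higher for 2 of 3 (0.18, 3409 to 4237), with Itgam, Csf1r, Aif1 and Fcgr2b below the floor on both arrays. The 2 were Cd74 (2776 to 3144, with -0.13 to 0.18 over its 4 probe sets) and Lyz2 (465 to 952), which made up most of the summed signal. Cd14 was lower, at -0.52. All summed signals include markers below the floor, whereas counts and medians cover only those above it on both arrays. Of 10 hepatocyte markers 3 exceeded the floor on each array, and Alb, the defining one, was below it on each. The 3 were Apoc3 (4216 to 3788) and the much fainter Serpina1 (107.6 to 88.2) and Ttr (50.9 to 61.9). No measured marker had a signal of 0, but the log2 ratios of some were close to 0, such as -0.02 for Rbp2 and for Tagln. In such bulk RNA, fewer cells of a type and less RNA per cell cannot be told apart.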

How the data were processed

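Signal intensities were deposited by the authors as 1 value per probe set on a linear scale. They were made with Affymetrix software, version 4.0 per the series' design text and MAS5 per the submitters' processing notes. The arrays had been scaled, as seen in the values (2% trimmed mean 216 on both). Detection calls were not used here. The members and the gene lists were chosen with earlier results of these data known.

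Symbols came from the array's annotation and were updated through the gene ID to RefSeq (GRCr8). Of 8799 probe sets, 59 were array controls, 7006 had 1 symbol (6985 updated), 308 had several and 1426 none, and the last 2 kinds entered no gene value. Scaling, floor and ratios are as described above. Every member probe set was named, with up to 4 genes per pathway list farthest from 0, every list gene at least 1.5-fold different, and up to 3 bright markers per cell type. Gss, Gsr, Nqo1, Hmox1, Selenow, Cyba, Xdh, Maob, Uox, Tagln and genes below the floor were named besides, after their values were seen. The alternatives were the deposited signals, loess (span 0.3), quantile normalization, a floor at the 30th or the 70th percentile, means over probe sets, a 2-fold threshold and counted bounds. A mean without incomplete probe sets was chosen after seeing the data. Scaling and counts were tested on simulated data. The simulated differences were larger than that of any enzyme and were set only in genes well above the floor. That test therefore does not show how well differences near 1.5-fold, or in faint genes, are recovered. Tools were matplotlib 3.10.9, statsmodels 0.14.6, scipy 1.17.1, pandas 2.3.3 and numpy 2.4.6 under Python 3.11.15.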

Additional observations from a re-analysis of the deposited data

How the results depend on the processing

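At a 2-fold threshold, 0 of the 10 enzymes were higher and 0 lower in the immobilized rat, and after loess 0 were lower at 1.5-fold. With the floor raised to the 70th percentile the 1 enzyme higher at 1.5-fold was Gpx1, since Gpx3 fell below that floor, as did Sod2 and Gclc. The median log2 ratio of the 10 enzymes was 0.09 and ranged from -0.05, with probe sets averaged, to 0.11, after loess, and was -0.02 under the 70th percentile floor. Averaging the probe sets gave -0.07 for Sod1 and -0.95 for Txnrd1. With the probe sets of incomplete design left out of the means, an alternative chosen after seeing the data, Sod1 was at 0.20 and the median of the 10 enzymes at 0.09. Of the 77 log2 ratios of single probe sets under other scalings and floors, 77 moved by less than 1 technical SD, and 1 changed sign (Prdx1, after loess). The deposited signals and the other floors shift every ratio by the same small amount, so those settings could not have moved a single probe set. Only quantile normalization and loess could. Among all genes, 63.1% of those at 1.5-fold were higher, against 52.8% after quantile normalization. The median of the thioredoxin list was 0.15 under the same floor, which leaves out Txnrd2. No paired analysis was possible because each group has 1 array.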
